A study of Rattus norvegicus with 10 samples.

Results

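The enzymes of mitochondrial fatty acid beta-oxidation were followed in liver RNA of rats on an iron-deficient diet. The 10 genes are Cpt2, Slc25a20, Acadvl, Acadl, Acadm, Hadha, Hadhb, Eci1 (written Dci in older annotations), Decr1 and Etfdh. They were chosen by name, with earlier results of these data known. Every probe set that the annotation of the array pairs with 1 of these genes alone was taken, which gave 13 probe sets of the 31042 tested. All 10 genes were measured, of 14217 genes with a probe set of their own. Each gene is represented by its brightest probe set; Hadha had 3 probe sets and Eci1 had 2.

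The iron-deficient group was 5 male Sprague-Dawley rats offered a diet with about 3 ppm iron freely, and the pair-fed group was 5 male Sprague-Dawley rats that received the control diet with 48 ppm iron in matched amounts. The 2 diets differed in the ferric citrate left out. All rats had the same acclimatization to daytime feeding, were labelled as 5 weeks old, and ate the experimental diets for 3 days. By the study's methods the liver was taken 1.5 h after feeding, while the labels can also be read as a feeding that lasted this long. One Affymetrix rat genome array was hybridized per rat, so replicates are separate rats. In the labels of the control samples the source field contradicts the title and the treatment, and the title decided the group.

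Mitochondrial beta-oxidation shortens fatty acids step by step and passes electrons to the respiratory chain. Long-chain acyl groups enter the matrix as carnitine esters through a carrier and are turned back into CoA esters. Each round then runs through a dehydrogenation by a flavin enzyme, a hydration, another dehydrogenation and a cleavage that releases acetyl-CoA. Unsaturated fatty acids need auxiliary enzymes that move or reduce their double bonds. Electrons from the flavin enzymes pass through the electron transfer flavoprotein and its dehydrogenase, which carries an iron-sulfur cluster, to ubiquinone. In liver the pathway supplies ketone bodies during fasting, and many of its genes are targets of the nuclear receptor PPAR-alpha. This receptor binds direct repeats of the motif AGGTCA with 1 base between them.

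The start regions of the genes are shown because these enzymes are often treated as 1 set of genes with a common receptor site, and because Hadha and Hadhb share a start region. RefSeq windows of 250 bases before and 50 bases after the annotated start (GRCr8) were at hand for 8 of the 10 genes and were searched on both strands for AGGTCANAGGTCA, in which 12 of the 13 bases are scored. The windows of 2 genes held a match of at least 10 of 12 bases, which 3.77% of 33469 rat promoters in the same table hold, and 3.01% of the 13243 promoters of genes on the array. The best match in Acadvl had 11 of 12 bases and began 17 bases before the start, a level of match that 0.439% of the promoters reach. That in Slc25a20 had 10 of 12 and began 15 bases after the start. Hadha, Hadhb, Cpt2 and Eci1 reached 8 or 9 bases, and Acadm and Etfdh 7. As 24.9% of all promoters reach 9 bases and 80.3% reach 8, these lower matches are common in the table. The capitals mark the best match in each sequence, on the strand of the gene, in stretches of 53 bases from chr10:55236690-55236742 (minus strand) for Acadvl, chr8:118243568-118243620 (plus strand) for Slc25a20 and chr10:13961002-13961054 (plus strand) for Eci1.
Acadvl: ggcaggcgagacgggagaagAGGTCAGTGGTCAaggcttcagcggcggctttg
Slc25a20: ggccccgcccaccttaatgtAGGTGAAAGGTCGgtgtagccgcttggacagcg
Eci1: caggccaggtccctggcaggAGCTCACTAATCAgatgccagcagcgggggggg

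Hadha and Hadhb, which encode the 2 chains of the trifunctional protein, lie head to head on chromosome 6. Their annotated starts are 301 bases apart, at 31907801 on the plus strand for Hadha and at 31907500 on the minus strand for Hadhb, so that their windows share 200 bases. Both have their best match of 9 of 12 bases at the same place, in capitals in the window of Hadha (chr6:31907551-31907850, plus strand).
Hadha: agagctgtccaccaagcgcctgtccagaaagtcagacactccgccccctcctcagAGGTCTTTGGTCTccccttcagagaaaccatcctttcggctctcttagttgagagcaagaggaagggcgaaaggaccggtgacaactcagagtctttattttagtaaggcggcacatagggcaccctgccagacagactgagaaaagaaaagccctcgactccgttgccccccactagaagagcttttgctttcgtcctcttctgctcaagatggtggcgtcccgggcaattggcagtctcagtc
A GC box (GGGCGG on either strand) was in the windows of 7 of the 8 genes, all but Acadvl, against 33.1% of all promoters and 55.7% of those of genes on the array. A match is a description of letters and no evidence of binding.

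The deposited values are robust multiarray average (RMA) signals on the log2 scale, so that a difference of 1 is a doubling. The array medians lay between 6.19 and 6.22. The mean correlation of an array with its group mates was 0.9914 to 0.9934 for iron-deficient and 0.9942 to 0.9949 for pair-fed rats. Iron-deficient replicate 1 was farthest from the rest and had the highest difference between the 3' and 5' control probe sets of GAPDH (0.36) and beta-actin (1.74), a sign of RNA quality. All 5 hepatocyte markers measured were bright and did not pass the test. All 5 had a slightly higher mean in the iron-deficient group, with a median log2 fold change of 0.02. Their summed levels were 17.03 to 17.07 in the iron-deficient group and 17.00 to 17.05 in the pair-fed group. All 5 red cell markers measured passed as lower, with a median log2 fold change of -0.74 and summed levels of 13.13 to 13.82 in the iron-deficient group against 13.70 to 14.32 in the pair-fed group. None of the 6 stellate markers passed; 5 had a higher mean, and their summed level was 12.39 to 13.04 in the iron-deficient group and 12.17 to 12.40 in the pair-fed group. All 4 Kupffer cell markers measured had a lower mean, with summed levels of 11.61 to 11.87 in the iron-deficient group and 11.64 to 12.30 in the pair-fed group. All 4 proliferation markers had a higher mean, with 8.01 to 8.84 in the iron-deficient group and 7.85 to 8.53 in the pair-fed group, as had 4 of 5 endothelial markers, with 13.02 to 13.08 in the iron-deficient group and 12.92 to 13.06 in the pair-fed group, and none of these passed. The part of these in the results for the enzymes was not tested.

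The expression of the beta-oxidation enzymes was on average slightly lower in the iron-deficient group, and 1 gene passed the test. Of the 10 genes, 9 had a lower mean than in the pair-fed group, where 52.5% of all genes and 58% of the genes in the brightest 10% of the array did. The log2 fold changes (iron-deficient minus pair-fed) ran from -0.50 to 0.04 with a median of -0.15, against a median of -0.01 over all genes and -0.02 over the brightest 10%. By the rank products (RP) method at a false discovery rate (FDR) under 0.05, Eci1 was down-regulated and 0 genes were up-regulated. The study had reported Eci1 (as Dci) down-regulated by this method on the same arrays, so the call is no independent finding. The same method called 0.573% of all probe sets and 0.76% of all genes lower, and 0.303% and 0.324% higher. Eci1 was also the only gene of the set called at a false discovery rate under 0.1 (0.722% of all probe sets lower) and over the 5 same-numbered pairs of arrays (0.477%), whereas rank sums, which called 0.0966% of all probe sets lower, called 0 of the 13. After Benjamini-Hochberg adjustment over all probe sets, limma called 0 probe sets of these genes and 0 of the whole array, where the lowest adjusted p was 0.397. At an unadjusted limma p under 0.05, 3 of the 10 genes were lower (Slc25a20, Eci1 and Decr1), against 4.94% of all genes and 7.22% of the brightest 10%. In RNA of whole liver, fewer hepatocytes and less RNA per hepatocyte cannot be told apart.

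**Figure D1:**
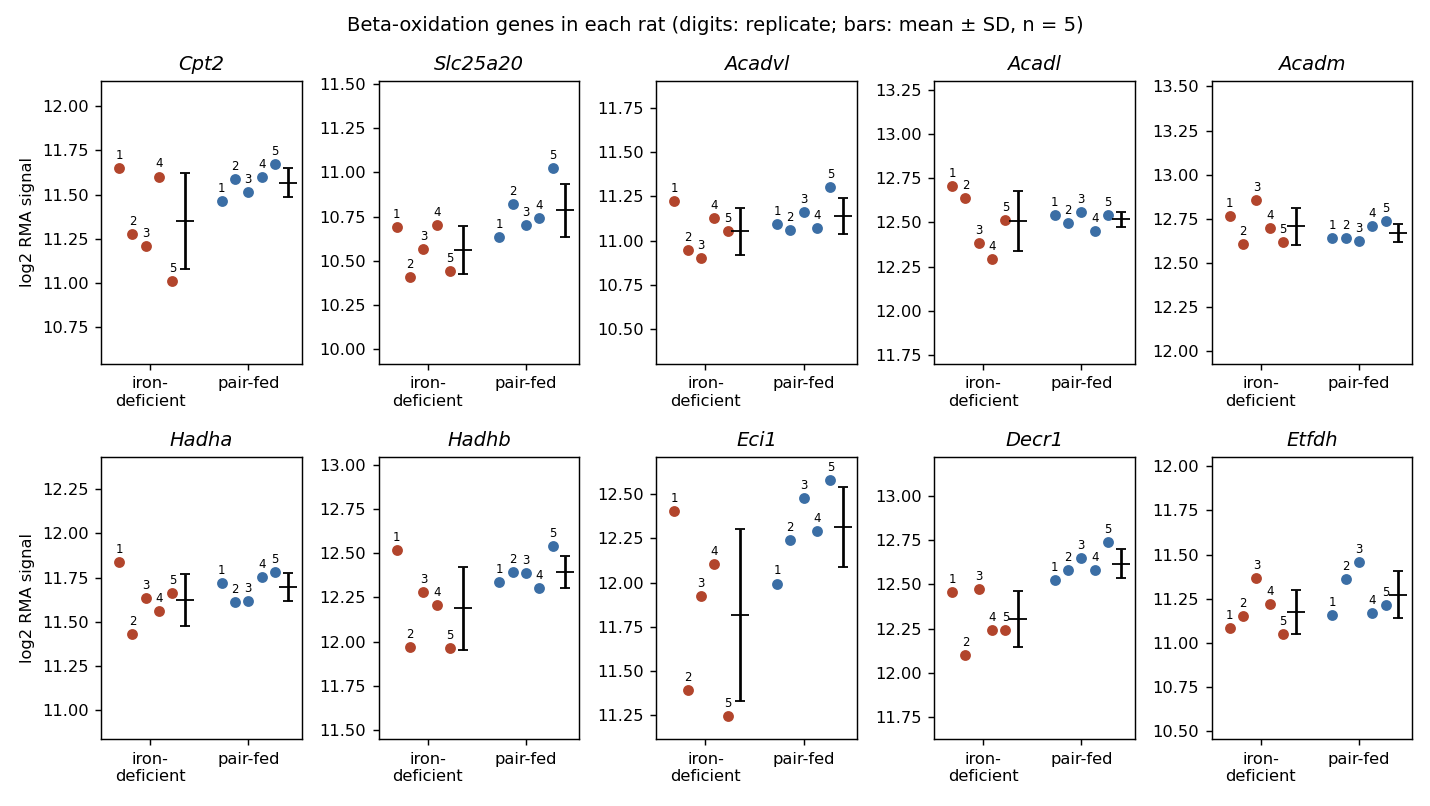
The log2 RMA signal of each of the 10 enzymes in each rat, iron-deficient in red and pair-fed in blue, with digits for the replicate and bars for the mean and SD (n = 5 per group); each panel spans the same number of log2 units. Decr1 is the gene in which all iron-deficient rats lie below all pair-fed rats, and the points of Eci1 spread widest, with iron-deficient replicates 2 and 5 at 11.39 and 11.25.

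Among the 10 genes, the auxiliary enzymes of unsaturated fatty acids, Eci1 and Decr1, showed the largest differences. Eci1 encodes the enoyl-CoA isomerase that shifts a double bond into the position that the next enzyme of the spiral needs. Its log2 signal was 12.40, 11.39, 11.92, 12.11 and 11.25 in iron-deficient replicates 1 to 5, against 12.00, 12.24, 12.48, 12.29 and 12.58 in pair-fed replicates 1 to 5. Iron-deficient replicates 2 and 5 were far below every pair-fed rat and replicate 3 just below the lowest of them, whereas replicate 1 lay among the highest values, so that the groups overlapped. The group means were 11.81 ± 0.49 in the iron-deficient group and 12.32 ± 0.23 in the pair-fed group (SD, n = 5 each), a log2 fold change of -0.50 (SE 0.199; 95% interval -0.93 to -0.07), or a signal 29.4% lower. Eci1 passed the rank products as down-regulated (FDR 0.0273, at rank 128 of the lower side). It did not pass limma (Benjamini-Hochberg adjusted p = 0.673), and the exact permutation test over the 10 rats, 2-sided, gave p = 0.0794. The RP call was lost without iron-deficient replicate 2 (log2 fold change -0.40), without iron-deficient replicate 5 (-0.36), and without pair-fed replicate 2 (-0.52), 3 (-0.46), 4 (-0.51) or 5 (-0.44). A dimmer probe set of Eci1 averaged 4.84 ± 0.32 in the iron-deficient group and 4.78 ± 0.08 in the pair-fed group (SD, n = 5 each), a log2 fold change of 0.06 that did not pass.

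Decr1 encodes the 2,4-dienoyl-CoA reductase, which removes 1 of a pair of neighbouring double bonds with NADPH. Its log2 signal was 12.46, 12.10, 12.47, 12.24 and 12.24 in iron-deficient replicates 1 to 5, against 12.53, 12.58, 12.65, 12.58 and 12.74 in pair-fed replicates 1 to 5. All 5 iron-deficient rats lay below all 5 pair-fed rats, which is the case for 1.18% of all genes in this direction, and Decr1 was the only 1 of the 10 genes with such a separation. The means were 12.30 ± 0.16 in the iron-deficient group and 12.62 ± 0.08 in the pair-fed group (SD, n = 5 each), a log2 fold change of -0.31 (SE 0.0808; 95% interval -0.49 to -0.14), or a signal 19.5% lower. The exact permutation test, 2-sided, gave p = 0.00794, the smallest that 5 rats against 5 allow. Decr1 nevertheless did not pass the rank products (FDR 0.243) or limma with Benjamini-Hochberg adjustment (adjusted p = 0.601), and its difference stayed between -0.35 and -0.26 when any 1 rat was left out.

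The carnitine shuttle genes were lower by similar amounts without passing. Slc25a20, the carrier that exchanges acylcarnitine for carnitine across the inner membrane, had a log2 signal of 10.69, 10.41, 10.57, 10.70 and 10.44 in iron-deficient replicates 1 to 5, against 10.63, 10.82, 10.70, 10.74 and 11.03 in pair-fed replicates 1 to 5. All 5 iron-deficient rats were below the pair-fed median, and pair-fed replicate 1 was the only pair-fed rat below the highest iron-deficient rat. The means were 10.56 ± 0.14 in the iron-deficient group and 10.78 ± 0.15 in the pair-fed group (SD, n = 5 each), a log2 fold change of -0.22 (SE 0.0879; 95% interval -0.41 to -0.03). The exact permutation test, 2-sided, gave p = 0.0397, whereas the limma adjusted p was 0.673 and the RP FDR 0.651.

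Cpt2 encodes the carnitine palmitoyltransferase of the inner membrane, which returns the acyl group to CoA. Its log2 signal was 11.65, 11.28, 11.21, 11.60 and 11.01 in iron-deficient replicates 1 to 5, against 11.47, 11.59, 11.51, 11.60 and 11.67 in pair-fed replicates 1 to 5. Iron-deficient replicates 2, 3 and 5 were below every pair-fed rat, and replicates 1 and 4 lay among the pair-fed values. The mean was 11.35 ± 0.27 in the iron-deficient group and 11.57 ± 0.08 in the pair-fed group (SD, n = 5 each), and the log2 fold change of -0.22 (SE 0.113) had a 95% interval of -0.46 to 0.03 (limma adjusted p = 0.742; exact permutation p = 0.135, 2-sided).

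The 3 acyl-CoA dehydrogenases, flavin enzymes that open each round for chains of different length, had small differences with intervals on both sides of 0. Acadvl, for very long chains, had a log2 signal of 11.23, 10.95, 10.90, 11.13 and 11.06 in iron-deficient replicates 1 to 5, against 11.09, 11.06, 11.16, 11.07 and 11.30 in pair-fed replicates 1 to 5, and its log2 fold change of -0.09 had a 95% interval of -0.26 to 0.08. Acadm, for medium chains, had a log2 signal of 12.76, 12.61, 12.86, 12.70 and 12.62 in iron-deficient replicates 1 to 5, against 12.64, 12.64, 12.62, 12.71 and 12.74 in pair-fed replicates 1 to 5. Acadm was the only gene of the 10 with a higher mean in the iron-deficient group, by 0.04 (95% interval -0.10 to 0.18). For Acadvl, iron-deficient replicates 2, 3 and 5 were below every pair-fed rat and replicates 1 and 4 lay within the pair-fed range. For Acadm, only iron-deficient replicate 4 lay within the narrow pair-fed range, with replicates 2 and 5 below it and replicates 1 and 3 above it.

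Acadl, for long chains, differed between the groups more in its spread than in its mean. Its log2 signal was 12.71, 12.64, 12.39, 12.30 and 12.52 in iron-deficient replicates 1 to 5, against 12.54, 12.50, 12.56, 12.45 and 12.54 in pair-fed replicates 1 to 5. Iron-deficient replicates 1 and 2 were above and replicates 3 and 4 below every pair-fed rat, and the SD was 0.17 in the iron-deficient group and 0.04 in the pair-fed group. The log2 fold change was -0.01 (95% interval -0.18 to 0.16) and its sign depended on which rat was left out, between -0.06 and 0.04. The limma adjusted p was 0.850 for Acadvl, 0.988 for Acadl and 0.936 for Acadm.

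The trifunctional protein carries out the later steps of the round on long chains at the inner membrane, with the hydratase and a dehydrogenase in the alpha chain (Hadha) and the thiolase in the beta chain (Hadhb). Hadha had a log2 signal of 11.84, 11.43, 11.63, 11.56 and 11.66 in iron-deficient replicates 1 to 5, against 11.72, 11.61, 11.62, 11.75 and 11.78 in pair-fed replicates 1 to 5. Hadhb had a log2 signal of 12.52, 11.97, 12.28, 12.21 and 11.96 in iron-deficient replicates 1 to 5, against 12.34, 12.40, 12.39, 12.30 and 12.54 in pair-fed replicates 1 to 5. For Hadhb, 4 of 5 iron-deficient rats were below every pair-fed rat and replicate 1 was near the highest pair-fed value, while for Hadha only replicates 2 and 4 were below every pair-fed rat. The log2 fold change was -0.21 (SE 0.103; 95% interval -0.43 to 0.02) for Hadhb and -0.07 (SE 0.0777; 95% interval -0.24 to 0.10) for Hadha, with limma adjusted p-values of 0.734 and 0.881. The difference between these changes was not tested, and the start region that the genes share is the one printed above. The dimmer Hadha probe sets, at -0.06 and 0.07, did not pass either.

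Etfdh encodes the dehydrogenase of the electron transfer flavoprotein, the protein among these 10 that holds an iron-sulfur cluster. Its log2 signal was 11.09, 11.15, 11.37, 11.22 and 11.05 in iron-deficient replicates 1 to 5, against 11.16, 11.36, 11.46, 11.17 and 11.21 in pair-fed replicates 1 to 5. The groups overlapped, with means of 11.18 ± 0.13 in the iron-deficient group and 11.27 ± 0.13 in the pair-fed group (SD, n = 5 each). The log2 fold change of -0.10 (SE 0.0822) had a 95% interval of -0.28 to 0.08 (limma adjusted p = 0.842), so that a decrease of up to 0.28 on the log2 scale lies within the interval. The subunits of the flavoprotein itself, Etfa (-0.03) and Etfb (-0.07), did not pass. They were named after their values were seen.

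**Figure D2:**
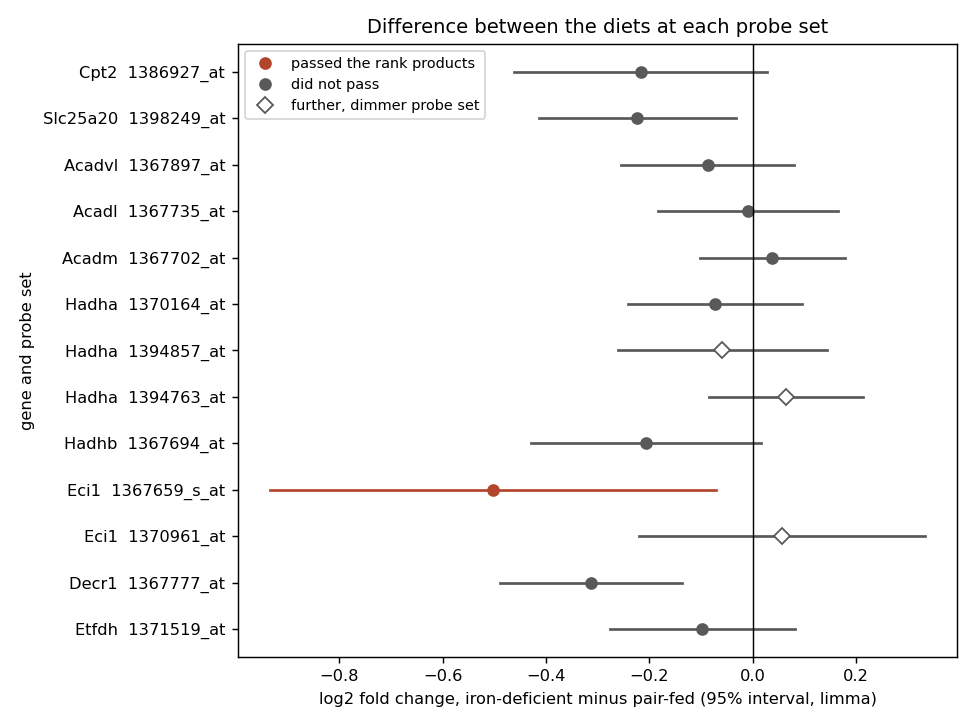
The log2 fold change of each of the 13 probe sets, iron-deficient minus pair-fed, with its 95% interval from limma; filled circles mark the brightest probe set of a gene and open diamonds the dimmer ones. The intervals of Slc25a20, Eci1 and Decr1 lie below 0, and the red one, Eci1 at -0.50, is the probe set that passed the rank products.

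The difference was carried unevenly by the rats. Averaged over the 10 genes, the difference from the pair-fed mean was 0.04, -0.30, -0.14, -0.12 and -0.32 in iron-deficient replicates 1 to 5, against -0.09, -0.02, 0.02, -0.03 and 0.12 in pair-fed replicates 1 to 5. Iron-deficient replicates 2 and 5 were the lowest and iron-deficient replicate 1 lay within the pair-fed range. Iron-deficient replicate 2 had the lowest value of all rats for 4 genes and replicate 5 for another 4, whereas pair-fed replicate 5 had the highest for 6. In replicate 5 all 10 genes were below the pair-fed mean, and in replicate 1 only 3 were, namely Slc25a20, Decr1 and Etfdh. Replicate 1 is also the array with the highest 3' to 5' differences named above. Without it the median log2 fold change of the 10 genes was -0.19 and Eci1 still passed, at -0.65.

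The spread between rats was larger in the iron-deficient group for 8 of the 10 genes, all but Slc25a20 and Etfdh, which was the case for 65.3% of all genes. The median SD of the 10 genes was 0.153 in the iron-deficient group and 0.0864 in the pair-fed group.

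**Figure D3:**
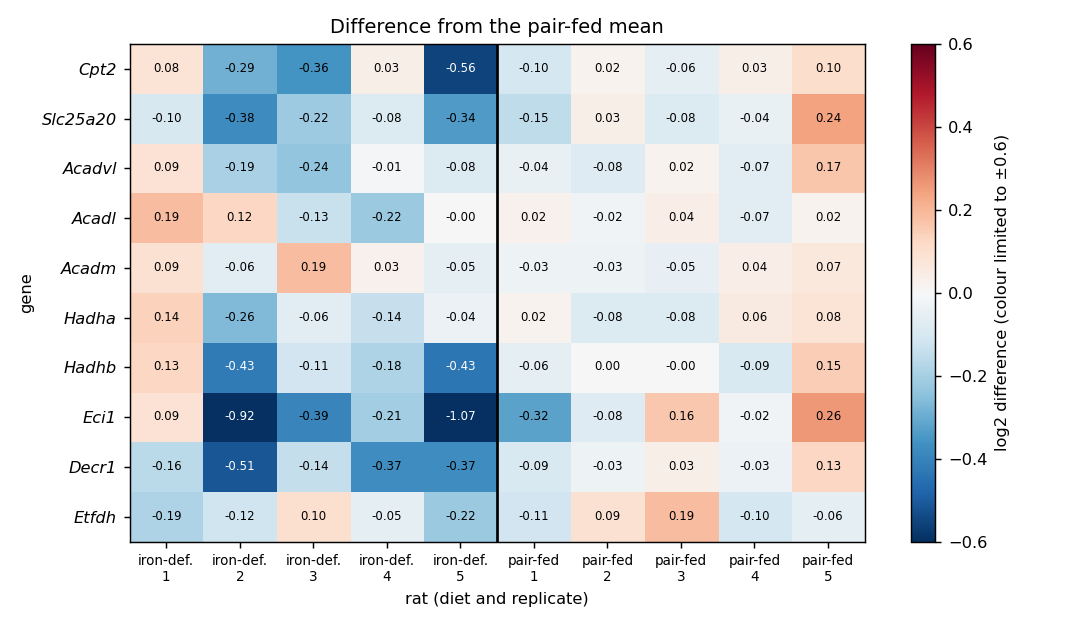
The log2 difference of each enzyme from its pair-fed mean in each rat, with iron-deficient rats left of the black line and pair-fed rats right of it; blue is lower and red higher, and the colour is limited to 0.6 either way. The columns of iron-deficient replicates 2 and 5 are the bluest, with Eci1 at -0.92 and -1.07, and the rows of Acadl and Acadm hold both colours.

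Many of the genes varied together from rat to rat. After the diet means were removed, the 45 pairs of genes had a median correlation over the 10 arrays of 0.45, and 38 pairs were above 0 and 21 above 0.5. All pairs among the 9301 genes above the median brightness had a median of 0.02. These correlations are descriptions, since all points share the arrays and their normalization. The closest pair was Hadhb and Eci1 (0.91), and Hadhb and Decr1 had 0.84. Hadhb had the highest mean correlation with the other genes (0.61), followed by Eci1 (0.59), Decr1 (0.53) and Slc25a20 (0.50). The mean correlations of Acadl (-0.02) and Etfdh (-0.01) were near 0, and the lowest pair was Hadha and Etfdh (-0.46).

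Genes outside the set that followed it most closely were ranked by their correlation with the mean of the 10 standardised genes over the 10 arrays, again with the diet means removed. The 8 closest were Jak3, a cytokine receptor kinase (r = 0.95), Wrnip1 (0.94), Ech1 (0.93), Slc4a4, a bicarbonate transporter (0.93), the chaperone Dnaja1 (0.93), the phosphatase Ptpn12 (0.93), Rlf (0.93) and Ankrd28 (0.92). Their rank correlations were 0.85 to 0.95, and with the 2 arrays farthest from the median left out r was 0.82 to 0.93. The 8 genes were picked as the highest among 9301 genes compared, so that high values are in part owed to the choice. Both checks used the same genes and arrays and are descriptions. Ech1 was the only one of the 8 genes that passed the rank products. For comparison, the members Hadhb and Eci1, which are part of the mean, had 0.98 and 0.94, and 0.94 and 0.90 without the 2 farthest arrays. That check lowered r to 0.06 for Hadha, against 0.67 over all arrays, to 0.42 for Acadvl, against 0.68, and to -0.20 for Acadl, against 0.13, so that the likeness of Hadha to the set rested on those arrays. The remaining 7 genes had log2 fold changes between -0.25 (Slc4a4) and 0.02 (Ptpn12).

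Ech1 was placed in the list of other mitochondrial beta-oxidation genes, although the study names it as a peroxisomal enoyl-CoA hydratase. It encodes a dienoyl-CoA isomerase for unsaturated fatty acids, like Eci1 and Decr1 an auxiliary enzyme. Its log2 signal was 12.51, 11.56, 12.32, 12.25 and 11.39 in iron-deficient replicates 1 to 5, against 12.28, 12.49, 12.54, 12.59 and 12.88 in pair-fed replicates 1 to 5. As with Eci1, iron-deficient replicates 2 and 5 were the lowest and replicate 1 was among the pair-fed rats. The log2 fold change was -0.55 (SE 0.201), and it passed as down-regulated (FDR 0.0212; limma adjusted p = 0.662). The call held in 4 of 10 cases when 1 rat was left out, with log2 fold changes of -0.67 to -0.39. Of the 22 genes measured of this list Ech1 was the only one that passed, where 0.76% of all genes were called lower. The study had reported Ech1 as down-regulated on the same arrays, so this call is no independent finding either. The list also held genes outside fatty acid beta-oxidation, such as Ivd, Gcdh, Pcca and Pccb. The list had 16 lower means and a median of -0.04. Eci2, a further enoyl-CoA isomerase of the list, had a log2 fold change of -0.09 and did not pass. Eci2 was named after its values were seen. Hadh, the dehydrogenase of short-chain 3-hydroxyacyl-CoA, and Echs1, the short-chain enoyl-CoA hydratase, were higher by 0.20 and 0.19 on the log2 scale without passing. The log2 signal of Hadh was 12.94, 12.75, 12.76, 12.66 and 12.86 in iron-deficient replicates 1 to 5, against 12.53, 12.60, 12.61, 12.70 and 12.54 in pair-fed replicates 1 to 5, with pair-fed replicate 4 the only pair-fed rat above the lowest iron-deficient rat (exact permutation test, 2-sided, p = 0.0159; limma adjusted p = 0.629).

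Fatty acid entry and the carnitine shuttle outside the 10 genes had 2 down-regulated genes of 17, against 0.76% of all genes. They had 8 lower means and a median of 0.02. Crat, the acetyltransferase that moves short acyl groups between CoA and carnitine, had a log2 fold change of -0.46 (SE 0.141; FDR 0.0383), and Cd36, a fatty acid transporter of the cell membrane, one of -0.42 (SE 0.198; FDR 0.0494). With 1 rat left out, Crat kept its call in 4 of 10 cases (-0.55 to -0.36) and Cd36 in 2 of 10 (-0.58 to -0.28). The study had reported Crat and Cd36 as down-regulated on the same arrays, so their calls are no independent findings. Acsl3, an acyl-CoA synthetase, had 0.40 and did not pass. Cpt1a, the liver form of the transferase that starts the shuttle and the step under control by malonyl-CoA, averaged 12.59 ± 0.27 in the iron-deficient group and 12.94 ± 0.17 in the pair-fed group (SD, n = 5 each). Its log2 fold change of -0.35 (SE 0.123) did not pass (FDR 0.146; limma adjusted p = 0.632). Cpt1a was named after its values were seen.

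In the remaining lists the calls fell among the other PPAR-alpha induced genes. There 5 of 14 were down-regulated, against 0.76% of all genes, with 11 lower means and a median of -0.14. The list was written with earlier results known, and the study had reported Acot3, Acot4 and Cyp4a3 as down-regulated. The count is therefore no independent support for a class of genes. Vnn1, a pantetheinase, had a log2 signal of 10.23, 9.50, 9.58, 10.14 and 9.22 in iron-deficient replicates 1 to 5, against 10.32, 10.52, 10.55, 10.15 and 10.58 in pair-fed replicates 1 to 5. Only iron-deficient replicate 1 was above the lowest pair-fed rat, and the log2 fold change was -0.69 (SE 0.175; FDR 0.00262). Vnn1 kept its call when any 1 rat was left out. The acyl-CoA thioesterases Acot4 (-0.56) and Acot3 (-0.43), which have close copies in the genome that probes may not tell apart, the fatty acid hydroxylase Cyp4a3 (-0.45) and the hormone Fgf21 (-0.37) passed as well. With 1 rat left out, Acot4 kept its call in 7 of 10 cases, Cyp4a3 and Fgf21 in 3 and Acot3 in 2, and the log2 fold change of Fgf21 ranged from -0.71 to -0.05. The Fgf21 signal ran from 7.20 to 9.03 in the iron-deficient group and from 6.92 to 9.56 in the pair-fed group, and limma gave an adjusted p of 0.909.

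Transcription factors, coactivators and other regulators of these genes showed no calls. Of 23 measured, 0 passed the rank products, 12 had a lower mean and the median was 0.00. The largest differences were those of Acacb, the acetyl-CoA carboxylase that makes malonyl-CoA near the mitochondrion (0.36), Sirt3, a mitochondrial deacetylase (-0.32), and the coactivator Ppargc1a (0.31). Their limma adjusted p-values were 0.673, 0.623 and 0.715. Ppara itself, named after its values were seen, averaged 6.56 ± 0.43 in the iron-deficient group and 6.44 ± 0.32 in the pair-fed group (SD, n = 5 each).

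Peroxisomal beta-oxidation, which shortens very long chains, had 0 genes past the rank products of 9 measured, 5 lower means and a median of -0.02. Ech1, which passed and which the study names as peroxisomal, was not in this list. The largest differences of the list were Decr2 (-0.27), Acox2 (0.26) and Abcd2 (0.24). Acox2 had an SD of 1.01 in the iron-deficient group and 0.88 in the pair-fed group. Neighbouring mitochondrial genes showed small differences of mostly 1 sign. The citric acid cycle had 13 lower means of 16 and a median of -0.05, led by Idh2 (-0.14), Idh3g (-0.14) and Sucla2 (-0.12). The list of outer membrane and import genes, which also held genes of matrix proteins such as Clpp and Hspe1, had 12 of 14. Its median was -0.04, led by Tomm70 (-0.18), Clpp (-0.18) and Hspe1 (-0.11). The list of the ubiquinone side of the respiratory chain had 13 of 14 and a median of -0.10, led by Coq3 (-0.18), Coq7 (-0.15) and Coq5 (-0.15). FAD and riboflavin supply had 4 of 4 and a median of -0.08, with Slc25a32 (-0.08), Slc52a2 (-0.08) and Flad1 (-0.07) as the largest. None of the genes in these 4 mitochondrial lists passed the rank products.

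**Figure D4:**
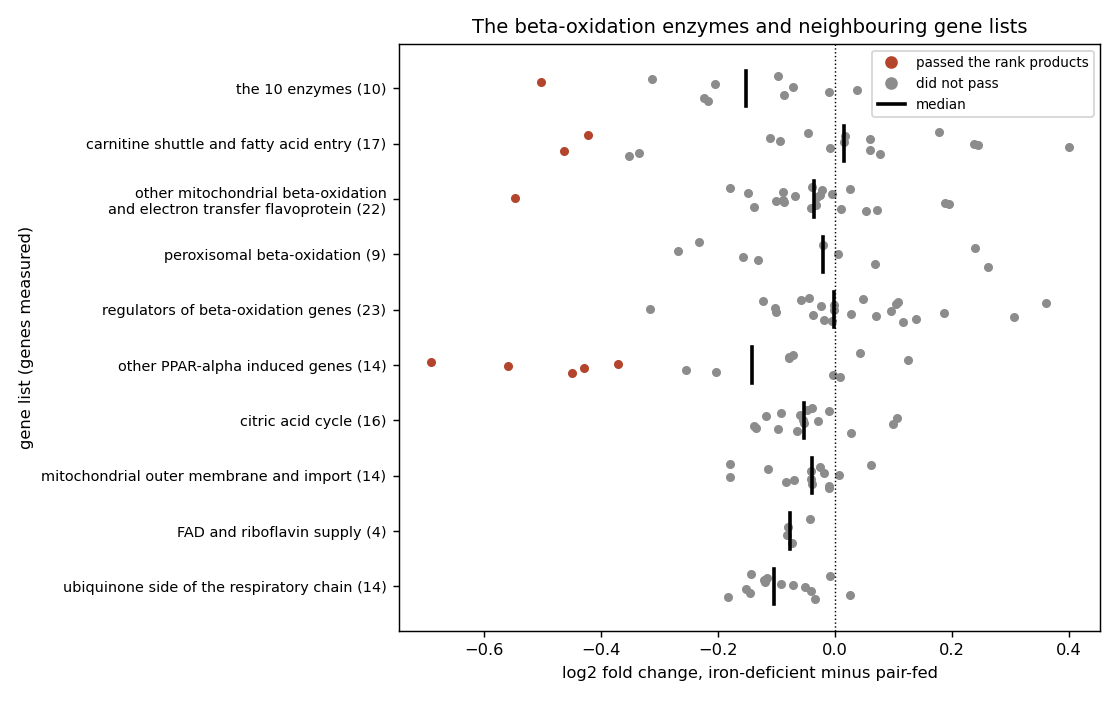
The log2 fold change, iron-deficient minus pair-fed, of each gene of the beta-oxidation set and of 9 other lists, with the number of genes measured in brackets; black bars are medians and red points passed the rank products. The medians of the 10 enzymes (-0.15) and of the other PPAR-alpha induced genes (-0.14) lie farthest to the left, and every red point is on the lower side.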

How the data were processed

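Liver RNA of 10 rats was hybridized to Affymetrix rat genome arrays, 1 per rat. The authors deposited robust multiarray average (RMA) values on the log2 scale, and these were used as deposited, with 0 columns of values left out. Versions of the authors' RMA tools are not repeated here. The tests covered 31042 probe sets, without 57 controls. The platform annotation pairs 20826 with 1 gene, 436 with several and 9780 with none. Entrez IDs of 20758 were found in a RefSeq gene table (GRCr8) and 0 symbols changed.

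Rank products followed the authors' choice of method: the differences of the 25 pairs of arrays were ranked, expected counts came from 100 permutations within arrays, and a false discovery rate under 0.05 was called (Python 3.11.15, numpy 2.4.6, pandas 2.3.3, figures in matplotlib 3.10.9). limma 3.58.1 in R 4.3.3 gave fold changes, standard errors, 95% intervals and Benjamini-Hochberg adjusted p-values over all probe sets. Exact permutation tests, 2-sided, were used for single values. Scripts were tested on simulated data. The number of arrays limits the precision, and arrays give no counting depth. A summed level is the log2 of the summed linear signals of a marker list.

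The members, the gene lists and the marker lists were chosen with earlier results of these data known. Named are all members, in each other list the genes that passed and the 3 with the largest differences, and the 8 genes most like the members. Exceptions are stated. Whether the same replicate numbers follow the pair feeding is not known. Deviations of same-numbered arrays had correlations of -0.04 to 0.09, which cannot decide it. The main tests took the rats as unpaired. Alternatives were a false discovery rate of 0.1, rank sums, limma without and with trend and robust moderation, dim probe sets left out, arrays centred on their medians, group medians, all probe sets of a gene averaged, a replicate block and each rat left out.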

Additional observations from a re-analysis of the deposited data

Results flagged for a closer look

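In 4 of 84 groups of 5 rats tested, over the 13 probe sets of the 10 enzymes and the brightest probe sets of the 29 genes that the naming rule gave from the other lists, 1 rat stood far from the others of its group. Chance alone flags about 5% of groups, which is about this many. The dim Hadha probe set had 3.68 in iron-deficient replicate 1, with the next value of that group at 3.90. Cd36 had 9.16 in iron-deficient replicate 3, with the next at 8.67. Cyp4a3 had 12.71 in pair-fed replicate 1, with the next at 13.06. Sirt3 had 9.38 in pair-fed replicate 5, with the next at 9.70.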

How the results depend on the processing

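The count of down-regulated probe sets among the 10 enzymes, 1 by rank products (Eci1), was 0 with rank sums, 0 with limma and 0 with limma with trend and robust moderation. It ranged from 0 to 1 when each rat was left out, and was 0 in 6 of the 10 cases. No probe set of the enzymes was up-regulated under any of these alternatives. The number of genes with a lower mean, 9, was 8 to 9 with each rat left out, and their median log2 fold change of -0.15 ranged from -0.19 to -0.11. The sign of Acadl turned, with a range of -0.059 to 0.044, and so did that of the dim Eci1 probe set, with -0.015 to 0.16. The other enzymes kept their direction in every alternative run.

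Over the whole array, 178 probe sets were lower and 94 higher. Rank sums gave 30 and 4, limma 0 and 0 in both forms, and leaving out dim probe sets 109 and 55. A false discovery rate under 0.1 gave 158 higher. With each rat left out the counts were 91 to 188 lower and 47 to 95 higher. At an unadjusted p under 0.05, limma had 1170 lower and 998 higher. Of the genes of the other lists, 8 were lower by rank products, against 0 with rank sums, 0 with limma, 3 without dim probe sets, and 1 to 7 with each rat left out; 0 were higher, and 0 to 1 with each rat left out. The cause of these changes was not tested.

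With the replicate number as a block, Eci1 stayed the only enzyme called, 4 genes of the other lists were lower and 1 higher, and limma called 0 probe sets (lowest adjusted p 0.418). Only 1 of the 5 same-numbered arrays was the best match of its counterpart. A match over the whole array cannot show whether the numbers follow the pair feeding.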
